A study of Sus scrofa with 8 samples.

Results

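The genes described here are 10 named genes of fat cell formation and lipid droplets. They are the adipogenic transcription factors PPARG, CEBPA and EBF2, the adipocyte products ADIPOQ, FABP4 and LPL, the droplet proteins PLIN1, PLIN2 and PLIN4, and the fatty acid receptor CD36. Members were found by matching the pig Ensembl gene identifiers of the deposited count table to these symbols. The match gave 9 of the 10 genes, among 22516 genes in the table; no identifier matched CD36, which was not analysed here. All 9 passed the low-count filter, which kept 17020 genes. PLIN1 reached the filter's minimum of 0.250 CPM (counts scaled to a common library total) only in the 2 knockout libraries at E62. ADIPOQ reached it in those 2 and in 1 wild-type library at E62, so both entered the tests through the group in which they were high.

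Bulk RNA sequencing measured limb muscle of pig embryos at embryonic days 41 (E41) and 62 (E62). At each stage 2 libraries came from wild-type embryos and 2 from embryos with knockout of MYF5, MYOD (MYOD1 in the gene table) and MYF6, the genes for 3 transcription factors that commit cells to skeletal muscle. The labels number the libraries as biological replicates, so the p-values measure the spread between 2 libraries a group. The comparisons ask how loss of the 3 factors changed the tissue at each stage. No strain, sex or method of knockout is given in the sources used here, and the series title says knockdown where the sample labels say knockout. The growth protocol gives the later stage as E60, and the stage labels give E62. Library names carry a different number in each group, so litter and batch cannot be told apart from the group. They carry the code LHL in wild type at E41 and RHL elsewhere. Limb thus cannot be told apart from the group where wild type at E41 is compared. The names of the knockout libraries at E62 also lack an ending that all others carry.

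Totals ranged from 23402052 to 60539245 counts per library. MYF5 and MYF6 had 0 counts in all 4 knockout libraries, and MYOD1 stood at 0.434 to 1.47 CPM there against 72.6 to 172 CPM in wild type. The markers of the labelled tissue were high in wild type only: 11 differentiated muscle genes summed to 14782 to 46459 CPM in wild type and to 15.96 to 31.4 CPM in the knockout, where all 11 were lower at both stages. Knockout replicate 2 at E62 stood apart from its partner, with a gap of 29.5 on the second principal component against at most 5.72 in the other 3 groups. Values of the 9 genes at E62 are therefore also given without it, as are the list counts at E62 that changed. Because these are bulk samples, fewer cells of a type and less RNA per cell cannot be told apart.

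Fat cells form from mesenchymal precursors when C/EBP proteins and PPARγ switch on one another and a shared set of target genes. Those targets include the fatty acid carrier FABP4, the hormone adiponectin (ADIPOQ) and perilipin 1, the coat protein of the droplets of mature fat cells. Other perilipins cover droplets in many cell types, and lipoprotein lipase serves muscle as well as fat, so the genes are not all specific to adipocytes. All levels below are TMM-scaled CPM, and all tests are edgeR's quasi-likelihood test with Benjamini-Hochberg adjustment over all 17020 genes. A gene was called when its adjusted p was under 0.05.

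At E62 PPARG, CEBPA, EBF2, ADIPOQ, PLIN1 and FABP4 were higher in the knockout, while LPL and PLIN4 were lower. Of the 9 genes, 6 were higher and 2 lower, where 21.0% of all tested genes were called higher and 26.2% lower. The median log2 change of the 9 was 1.73, against 0.06 over all tested genes. The 9 genes were chosen with earlier results of these data known. These figures, and the shares given below, therefore describe the genes and are not a test of the set. PLIN1 and ADIPOQ also entered the tests through the group in which they were high. PLIN2 was not called.

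**Figure D1:**
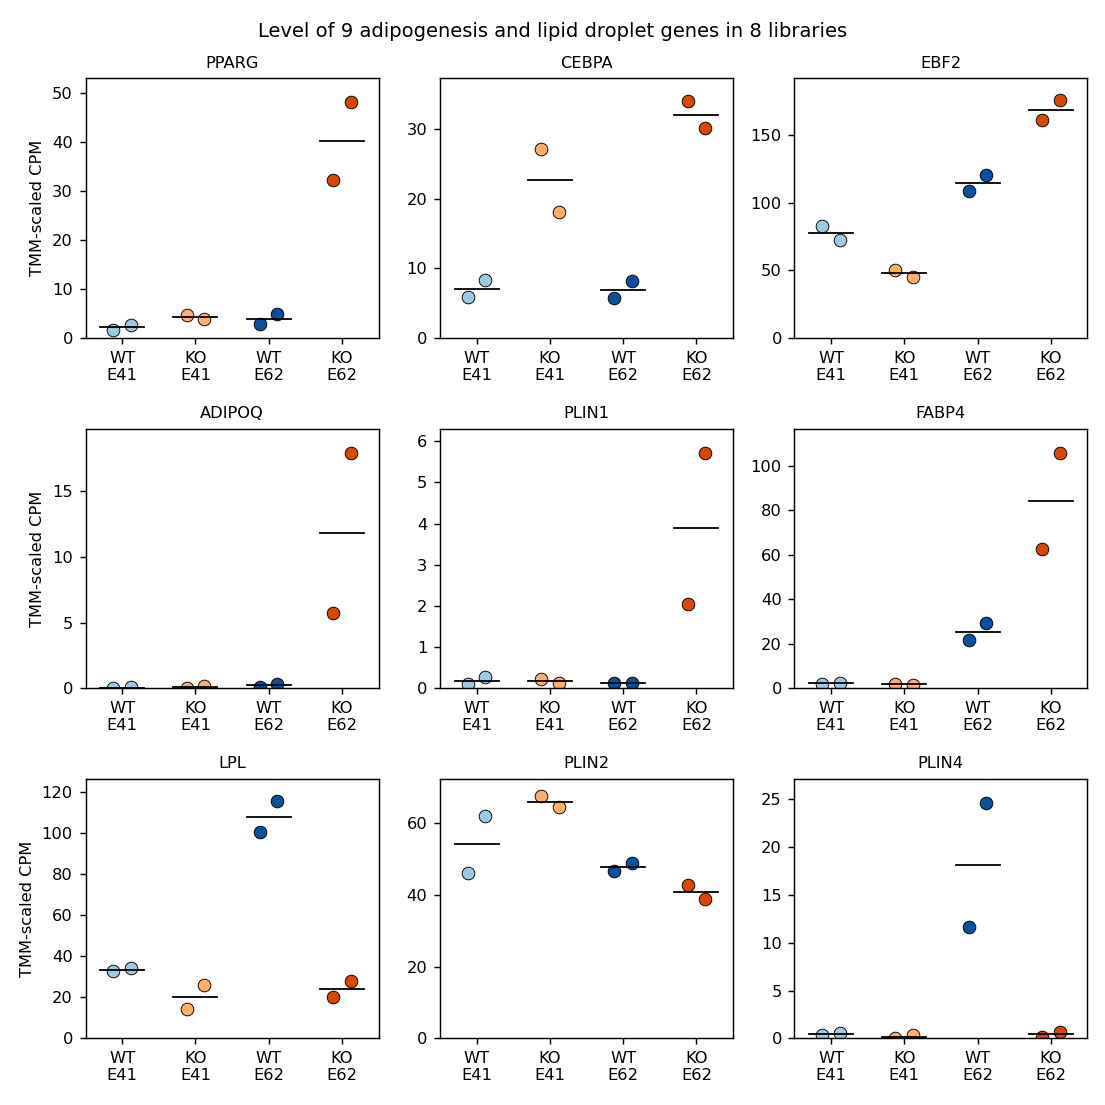
Level of each of the 9 genes in every library, in TMM-scaled CPM on linear axes that start at 0, with 1 point per library, the 4 groups side by side and a line at the mean of each group. The 2 knockout libraries at E62 lie above every other library for ADIPOQ, PLIN1, PPARG, FABP4, CEBPA and EBF2, whereas PLIN4 and LPL are highest in the 2 wild-type libraries at E62.

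PPARG, which encodes the nuclear receptor that directs fat cell differentiation, lies at chr13:68301566-68433951 (Sscrofa11.1, RefSeq). Its level at E62 was 2.95 and 4.86 CPM in the wild-type libraries and 32.4 and 48.2 CPM in the knockout libraries. Both knockout libraries were far above both wild-type libraries, with no overlap. PPARG was 10.3-fold higher in the knockout, a log2 change of 3.37 ± 0.32 (SE, n = 2 libraries a group; edgeR adjusted p = 0.00018). Without knockout replicate 2 the log2 change was 3.05 (adjusted p = 0.00037).

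CEBPA at chr6:43083200-43085884 encodes C/EBPα, the partner of PPARγ in this programme. It stood at 5.68 and 8.22 CPM in wild type and at 34.02 and 30.05 CPM in the knockout at E62. The groups did not overlap and the 2 knockout values were close. The log2 change was 2.20 ± 0.27, which is 4.61-fold (edgeR adjusted p = 0.00063), and 2.29 without knockout replicate 2 (adjusted p = 0.0019).

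EBF2 at chr14:9816992-10027574 encodes a factor that marks precursors of fat cells, known best in mouse for brown fat. Its level was 109 and 120 CPM in wild type and 161 and 176 CPM in the knockout at E62. The knockout libraries were again the higher pair, by a smaller margin of 1.47-fold (log2 change 0.56 ± 0.11, edgeR adjusted p = 0.0039), or 0.49 on the log2 scale without knockout replicate 2 (adjusted p = 0.021). A non-coding gene overlaps EBF2 in the RefSeq annotation, and without a stated strand their reads could not be told apart.

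ADIPOQ at chr13:124633906-124646237 encodes adiponectin, a hormone secreted by fat cells. At E62 it was counted 4 and 11 times in the wild-type libraries and 387 and 1075 times in the knockout libraries, which is 0.120 and 0.324 CPM against 5.71 and 17.9 CPM. The gene was close to its lower limit of detection in wild type and plainly present in both knockout libraries. Outside those 2 knockout libraries, ADIPOQ reached the low-count filter's minimum only in 1 wild-type library at E62. It was 52.4-fold higher in the knockout (log2 change 5.71 ± 0.91, edgeR adjusted p = 0.0024). Its 2 knockout libraries differed 3.14-fold, and without knockout replicate 2 the log2 change was 4.66 (adjusted p = 0.004). Without knockout replicate 1 it was 6.30, and without wild-type replicate 2 it was 6.58.

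PLIN1 at chr7:55237517-55250797 encodes perilipin 1, which guards the droplets of mature fat cells against lipolysis. Counts at E62 were 4 and 4 in wild type and 138 and 343 in the knockout, which is 0.120 and 0.118 CPM against 2.04 and 5.72 CPM. As for ADIPOQ, wild type was near 0 and the second knockout library was the highest of all 8. PLIN1 passed the low-count filter only through the 2 knockout libraries, so its test was not independent of the group in which it was high. The gene was 31.8-fold higher (log2 change 4.99 ± 0.73, edgeR adjusted p = 0.001), and 4.06 on the log2 scale without knockout replicate 2 (adjusted p = 0.0039). PLIN1 overlaps a non-coding gene in the annotation.

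FABP4 at chr4:55096400-55101209 encodes a fatty acid carrier of fat cells that macrophages and capillary endothelium also make. It stood at 21.6 and 29.3 CPM in wild type and at 62.7 and 106 CPM in the knockout at E62. The gene was well expressed in both genotypes, and its 2 knockout libraries were the higher pair. The log2 change was 1.73 ± 0.26, which is 3.31-fold (edgeR adjusted p = 0.0017), and 1.30 without knockout replicate 2 (adjusted p = 0.0016).

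LPL and PLIN4 were the 2 genes that fell. LPL at chr14:4104761-4134964 encodes the enzyme that frees fatty acids from circulating lipoproteins. Its level at E62 was 101 and 116 CPM in wild type and 20.2 and 27.95 CPM in the knockout. The ranges were well apart, in the opposite direction to FABP4. The log2 change was −2.17 ± 0.29 (edgeR adjusted p = 0.0014), so LPL was 4.50-fold lower; without knockout replicate 2 the log2 change was −2.42 (adjusted p = 0.0046).

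PLIN4 at chr2:74318624-74331920 encodes perilipin 4, a droplet protein of fat cells and skeletal muscle. It stood at 11.6 and 24.6 CPM in wild type and at 0.118 and 0.718 CPM in the knockout at E62. Wild type held nearly all of the signal, and each pair of libraries was widely spread. The log2 change was −5.45 ± 1.21, 43.8-fold lower (edgeR adjusted p = 0.014). Without wild-type replicate 2 the adjusted p was 0.055 at a log2 change of −4.81, and without knockout replicates 1 and 2 in turn the change was −4.66 and −7.23. PLIN4 overlaps HDGFL2 at one end in the annotation and lies beside PLIN5, another perilipin gene, which was also lower.

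PLIN2 at chr1:203683867-203709277 encodes the perilipin that coats droplets in most cell types. It overlaps a transcribed pseudogene in the annotation. Its level at E62 was 46.7 and 48.9 CPM in wild type and 42.7 and 38.8 CPM in the knockout. The 2 pairs did not overlap, but the difference was small. The log2 change was −0.23 (95% interval −0.55 to 0.09, edgeR adjusted p = 0.20), and it turned positive with library size alone and with upper-quartile factors. Without knockout replicate 2 it was −0.16 (adjusted p = 0.48).

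**Figure D2:**
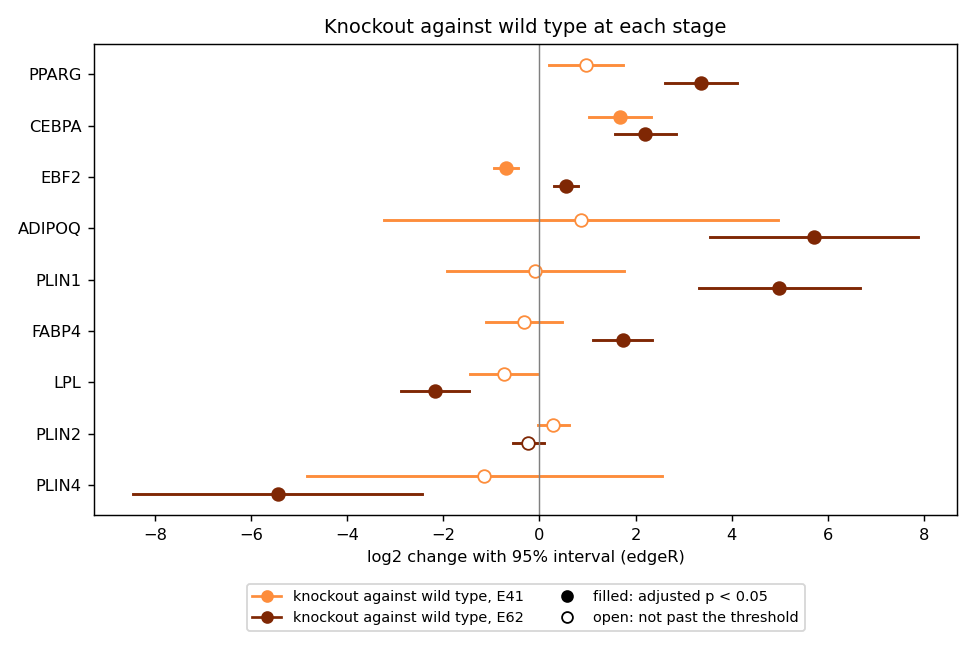
Log2 change of each of the 9 genes in knockout against wild type at E41 and at E62, with bars for the 95% interval and filled points for adjusted p under 0.05. At E62, 6 genes lie to the right and 2 to the left, while at E41 only CEBPA and EBF2 were called.

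At E41 none of ADIPOQ, PLIN1 and FABP4 was called between the genotypes. Of the 9 genes, CEBPA was higher and EBF2 lower, where 18.5% of all tested genes were called higher and 20.8% lower. Their median log2 change was −0.08, against 0.09 over all tested genes. CEBPA stood at 5.89 and 8.32 CPM in wild type and at 27.2 and 18.1 CPM in the knockout. Its knockout libraries were thus already above wild type at the earlier stage (log2 change 1.67 ± 0.27, edgeR adjusted p = 0.0031).

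EBF2 stood at 82.8 and 72.4 CPM in wild type and at 50.3 and 45.4 CPM in the knockout at E41. The knockout pair was the lower one here and the higher one at E62. The log2 change at E41 was −0.70 ± 0.11 (edgeR adjusted p = 0.0021).

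PPARG was 1.74 and 2.65 CPM in wild type and 4.63 and 4.00 CPM in the knockout at E41. The groups did not overlap, and the log2 change of 0.97 ± 0.33 lay just outside the threshold (edgeR adjusted p = 0.053); 10 of 17 other settings put it inside. LPL was 32.9 and 34.3 CPM against 14.2 and 25.9 CPM, a log2 change of −0.74 ± 0.29 (edgeR adjusted p = 0.086). PLIN2 was 46.2 and 62.1 CPM against 67.5 and 64.5 CPM, a log2 change of 0.29 ± 0.14 (edgeR adjusted p = 0.14). None of these 3 genes passed the test.

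FABP4 was low in all 4 libraries at E41, at 2.08 and 2.26 CPM in wild type and 1.81 and 1.65 CPM in the knockout (log2 change −0.33 ± 0.33, edgeR adjusted p = 0.48). The remaining 3 genes were near the limit of detection. ADIPOQ had 0 and 2 counts in wild type and 1 and 7 in the knockout, a ratio of 1.87 with a 95% interval for counting error of 0.374 to 18.1. PLIN1 had 2 and 6 counts against 10 and 6 (log2 change −0.08 ± 0.80, edgeR adjusted p = 0.95). PLIN4 had 7 and 12 counts against 0 and 18 (log2 change −1.15 ± 1.49, edgeR adjusted p = 0.58). A difference in these 3 genes was not detectable at this depth.

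The knockout effect itself differed between the stages for 5 of the 9 genes. The difference was positive, meaning a more positive knockout effect at E62, for FABP4, PPARG, EBF2 and PLIN1, and negative for LPL, where 11.2% of all tested genes were called in the positive and 15.5% in the negative direction. EBF2 gave a difference of 1.26 ± 0.15 on the log2 scale (edgeR adjusted p = 0.0017), from a lower level at E41 to a higher one at E62. PPARG gave 2.40 ± 0.45 (edgeR adjusted p = 0.009). Of the 5 called genes, EBF2 and PPARG were those whose difference kept its call in every alternative run.

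FABP4 gave a difference of 2.05 ± 0.42 (edgeR adjusted p = 0.013), which was not called without wild-type replicate 1, wild-type replicate 2 or knockout replicate 2 at E41 (adjusted p 0.052 to 0.06). PLIN1, which passed the low-count filter only through the knockout libraries at E62, gave 5.07 ± 1.11 (edgeR adjusted p = 0.014). Its value was 4.15 without wild-type replicate 2 at E41 (adjusted p = 0.12) and 4.14 without knockout replicate 2 at E62 (adjusted p = 0.028). LPL gave −1.43 ± 0.41 (edgeR adjusted p = 0.044), and its call was lost in 9 of 16 alternatives, including the loss of any single library except knockout replicate 1 at E41 and knockout replicate 2 at E62.

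ADIPOQ had a difference of 4.84 ± 2.61 between the stages (edgeR adjusted p = 0.21), so its presence at E62 is not by itself a tested change in the knockout effect. CEBPA had a difference of 0.53 ± 0.38 (edgeR adjusted p = 0.33). PLIN2 and PLIN4 had differences of −0.52 ± 0.19 (edgeR adjusted p = 0.087) and −4.30 ± 1.89 (edgeR adjusted p = 0.15). None of these 4 passed.

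The change from E41 to E62 was then read within each genotype. In wild type 4 of the 9 genes were higher at E62 and none lower, where 19.8% of all tested genes were called higher and 20.0% lower. In the knockout 5 were higher and 1 lower, where 12.1% of all tested genes were called higher and 18.0% lower. These comparisons use the same 8 libraries as those between genotypes, and the difference of the 2 stage changes is the contrast already given.

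**Figure D3:**
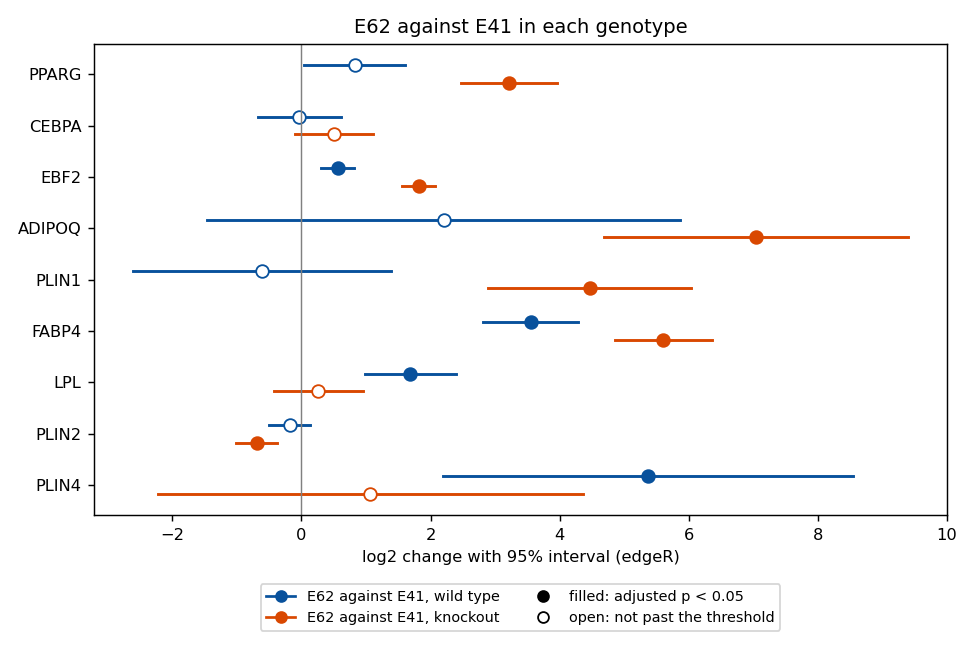
Log2 change of each of the 9 genes from E41 to E62 in wild type and in the knockout, with bars for the 95% interval and filled points for adjusted p under 0.05. FABP4 and EBF2 were called higher in both genotypes, LPL and PLIN4 in wild type, and ADIPOQ, PPARG and PLIN1 in the knockout.

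FABP4 was higher at E62 in both genotypes, by 3.55 ± 0.31 on the log2 scale in wild type (edgeR adjusted p = 0.00047) and by 5.60 ± 0.32 in the knockout (edgeR adjusted p = 0.00029). EBF2 was higher by 0.56 ± 0.11 in wild type (edgeR adjusted p = 0.0056) and by 1.82 ± 0.11 in the knockout (edgeR adjusted p = 0.00029). LPL was higher at E62 by 1.69 ± 0.29 in wild type (edgeR adjusted p = 0.0056), and its change in the knockout was 0.26 ± 0.29 (edgeR adjusted p = 0.51). PLIN4 was higher by 5.37 ± 1.28 in wild type (edgeR adjusted p = 0.022), a call lost when either wild-type library at E41 or wild-type replicate 2 at E62 was left out (highest adjusted p 0.11). The change of PLIN4 in the knockout was 1.07 ± 1.33 (edgeR adjusted p = 0.57).

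In the knockout ADIPOQ, PPARG and PLIN1 rose together with FABP4 and EBF2. ADIPOQ was higher at E62 than at E41 by 7.04 ± 0.99 on the log2 scale in the knockout (edgeR adjusted p = 0.0039), with values of 5.99 to 8.90 when each knockout library was left out in turn. PPARG was higher by 3.22 ± 0.32 (edgeR adjusted p = 0.0011). PLIN1 was higher by 4.46 ± 0.68 (edgeR adjusted p = 0.0037), or 3.53 without knockout replicate 2 at E62. In wild type the same 3 genes gave 2.20 ± 1.54, 0.82 ± 0.34 and −0.61 ± 0.86, none of them called. PLIN2 was lower in the knockout at E62 by a log2 change of −0.70 ± 0.14 (edgeR adjusted p = 0.0093; 0.057 without knockout replicate 1 at E41). CEBPA did not pass between the stages in either genotype, at −0.03 ± 0.28 in wild type and 0.50 ± 0.26 in the knockout.

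Other genes of the same processes were counted in lists that leave out the 9 genes. For the list counts here and below, the background is the share of all tested genes called in the main fit. It was 18.5% higher and 20.8% lower at E41, and 21.0% higher and 26.2% lower at E62. Counts near these shares are not read as a result about a list. Of 15 droplet and lipolysis genes, 3 were higher and 2 lower at E41 (median log2 change 0.17), and 2 were higher and 6 lower at E62 (median −0.04; 2 and 5 without knockout replicate 2). The split at E62 depended on the scaling: 5 were higher and 4 lower with library size alone or upper-quartile factors (medians 0.26 and 0.21). Of 16 fatty acid and triglyceride synthesis genes, 4 were higher and 6 lower at E41 (median −0.24), and 2 were higher and 7 lower at E62 (median −0.26; 2 and 5 under both other scalings). The list of 12 fatty acid uptake genes had 4 higher and 3 lower at E41 (median −0.03) and 3 higher and 5 lower at E62 (median −0.18; 3 and 3 with library size alone, 2 and 6 without knockout replicate 2). The counts under other scalings, and those given below without knockout replicate 2 at E62, were added after seeing the data.

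Among droplet genes, FITM1, which promotes droplet formation and is muscle-rich, had log2 changes of −6.93 at E41 and −9.12 at E62 (edgeR adjusted p = 1.2e-05 and 2e-06). PLIN5, the perilipin of oxidative tissues, had log2 changes of −1.48 ± 0.47 and −3.69 ± 0.42 (edgeR adjusted p = 0.042 and 0.00038; −4.48 at E62 without knockout replicate 2). Its call at E41 was lost with library size alone (adjusted p = 0.075). PNPLA2, the first lipase of droplet breakdown, was higher at E41 (0.76 ± 0.16, edgeR adjusted p = 0.0077) and lower at E62 (−1.11 ± 0.16, edgeR adjusted p = 0.00092). Its co-activator ABHD5 was higher at E62 (1.26 ± 0.21, edgeR adjusted p = 0.002). CIDEB, the other droplet gene higher at E62, rested on 32 counts against 1, a ratio of 16.8 with a counting interval of 2.81 to 686.

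In the synthesis list GPD1, which makes the glycerol backbone, was lower at both stages (−2.88 ± 0.21 and −3.40 ± 0.20; edgeR adjusted p = 6.3e-05 and 1.1e-05). AGPAT2, an acyltransferase of triglyceride synthesis, was higher at E41 (1.00 ± 0.31, edgeR adjusted p = 0.039; 0.051 without knockout replicate 2 at E62) and lower at E62 (−3.22 ± 0.32, edgeR adjusted p = 0.00023). The 2 members that were higher at E62 were DGAT2, the last acyltransferase (2.77 ± 0.45, edgeR adjusted p = 0.0019; 2.14 without knockout replicate 2), and PCK1, an enzyme of glycerol synthesis in fat. PCK1 had 351 counts in the knockout against 1 in wild type at E62, a ratio of 185 with a counting interval of 32.9 to 7316; 293 of the 351 lay in knockout replicate 2.

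Among uptake genes FABP3, the fatty acid carrier of muscle, was lower at both stages (−2.34 ± 0.10 and −2.76 ± 0.10; edgeR adjusted p = 3.1e-06 and 7.8e-07). VLDLR, a lipoprotein receptor, was lower as well, at E62 by a log2 change of −1.44 ± 0.15 (edgeR adjusted p = 0.00024). FABP5 was higher at E62 (1.41 ± 0.18, edgeR adjusted p = 0.00069). ANGPTL4, an inhibitor of lipoprotein lipase, was also higher at E62, at 33.3 and 64.3 CPM against 9.77 and 14.6 CPM in wild type (edgeR adjusted p = 0.0038).

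Of 11 tested adipokine and mature adipocyte genes, 2 were higher and 4 lower at E41 (median log2 change 0.08) and 3 were higher and 3 lower at E62 (median 0.21; 4 and 3 without knockout replicate 2). CFD, which encodes adipsin, stood at 5.59 and 6.60 CPM in wild type and 24.6 and 31.2 CPM in the knockout at E62 (log2 change 2.19 ± 0.20, edgeR adjusted p = 0.00011) and was already higher at E41 (1.89 ± 0.22, edgeR adjusted p = 0.00054). RARRES2, the gene of chemerin, was higher at both stages (0.77 ± 0.15 and 0.71 ± 0.15; edgeR adjusted p = 0.0062 and 0.0063). CDH13 of the same list was lower at both stages (−0.76 ± 0.11 and −1.51 ± 0.11, edgeR adjusted p = 0.0015 and 3.5e-05). ADIPOR1 was lower at both stages as well (−0.62 ± 0.10 and −0.77 ± 0.09, edgeR adjusted p = 0.0019 and 0.00047). LEP, the leptin gene, was named after its values were seen: it had 16 and 39 counts in wild type and 18 and 26 in the knockout at E62. Leptin gave no called difference (log2 change −1.22 ± 0.91, edgeR adjusted p = 0.31).

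**Figure D4:**
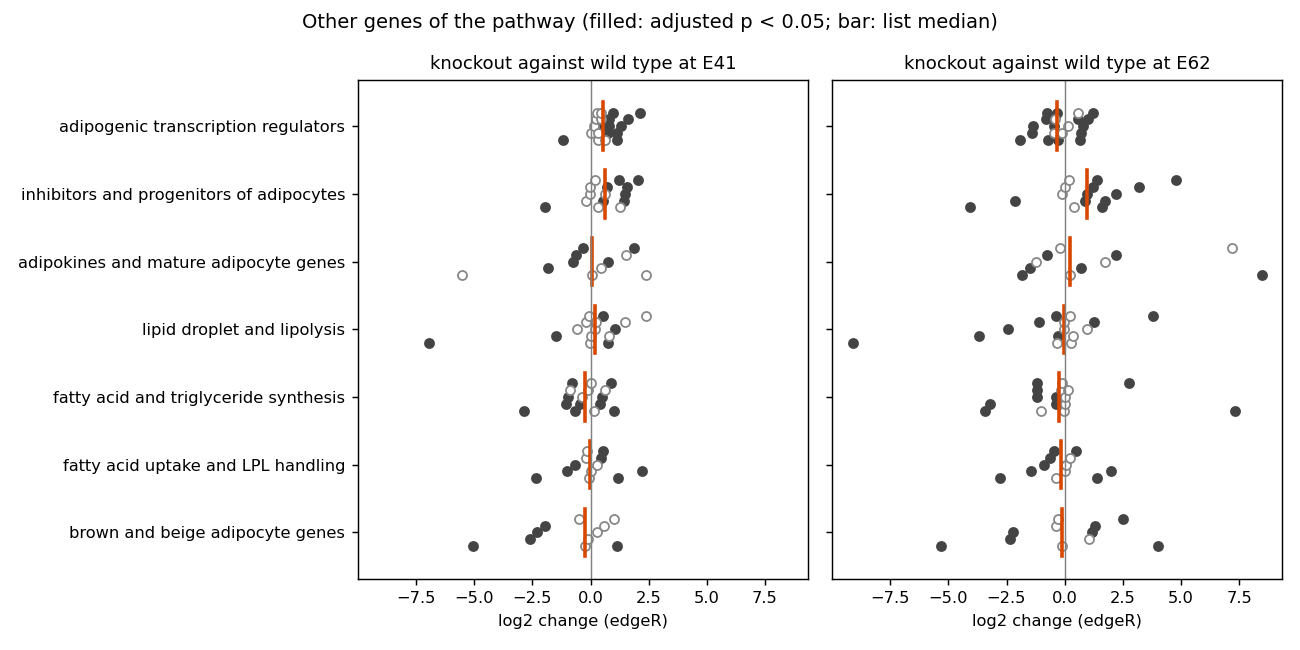
Log2 change in knockout against wild type at E41 (left) and E62 (right) for every tested gene of the other lists of fat cell and lipid genes, with 1 point per gene, filled where the adjusted p is under 0.05, and a bar at the list median. Points lie on both sides of 0 in each list at E62, with medians from −0.32 for the regulators to 0.97 for the inhibitors and progenitors; the position of a gene at 0 counts in 1 group depends on the prior count of the fit.

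Of 20 other adipogenic transcription regulators, 10 were higher and 1 lower at E41 (median log2 change 0.55), whereas 6 were higher and 9 lower at E62 (median −0.32). The counts at E62 were 7 higher and 5 lower with library size alone or upper-quartile factors, and 4 and 7 without knockout replicate 2; at E41 library size alone gave 16 higher and 1 lower. RXRA, the partner receptor of PPARγ, was higher at E41 (1.14 ± 0.12, edgeR adjusted p = 0.00033) and lower at E62 (−0.35 ± 0.12, edgeR adjusted p = 0.04), a call lost under both other scalings and without knockout replicate 2 (adjusted p 0.78, 0.51 and 0.18). ZFP36L1 was higher at both stages (1.12 ± 0.14 and 0.78 ± 0.14; edgeR adjusted p = 0.00071 and 0.0025), as was EBF3, a paralogue of EBF2, at E62 (0.71 ± 0.12, edgeR adjusted p = 0.0025). PPARGC1A, a coactivator of oxidative metabolism, was lower at both (−1.17 ± 0.18 and −1.93 ± 0.17; edgeR adjusted p = 0.002 and 9.9e-05).

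Of 15 inhibitor and progenitor genes, 7 were higher and 1 lower at E41 (median log2 change 0.60) and 9 were higher and 2 lower at E62 (median 0.97; 8 and 2 without knockout replicate 2). PDGFRA, a receptor of mesenchymal progenitors, was higher at both stages (0.55 ± 0.10 and 1.38 ± 0.10; edgeR adjusted p = 0.0046 and 3.9e-05). DLK1, an inhibitor of fat cell differentiation that fetal muscle also expresses, was 514 and 512 CPM in wild type and 121 and 141 CPM in the knockout at E41. At E62 it was 1822 and 1706 CPM against 79.7 and 130 CPM. The knockout pair was the lower one at both stages (log2 change −1.97 ± 0.22 and −4.08 ± 0.24; edgeR adjusted p = 0.00053 and 1.3e-05). Of 11 brown and beige adipocyte genes, 1 was higher and 4 lower at E41 (median −0.24) and 4 were higher and 3 lower at E62 (median −0.11). UCP1, a further gene of this list, matched no identifier in the table. CKMT2 was lower at both stages (−5.06 ± 0.31 and −5.31 ± 0.29, edgeR adjusted p = 2.6e-05 and 7.1e-06). EVA1A was higher at E62 (2.49 ± 0.31, edgeR adjusted p = 0.00051).

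Markers of other cell types moved with genotype beside these genes. Macrophage markers were all higher in the knockout at E62, at 11 of 11 (median log2 change 1.92), against 2 higher and 1 lower at E41 (median 0.59; 7 and 0 with library size alone). They summed to 739 to 782 CPM in the knockout at E62 and to 127 to 265 CPM in the other 6 libraries. Without knockout replicate 2 the count at E62 was 10 of 11. Endothelial markers were higher for 4 of 12 at E41 and 5 of 12 at E62, with none lower (8 of 12 at E41, and 2 higher and 1 lower at E62, without that library). They summed to 748 to 994 CPM in wild type and 1069 to 1788 CPM in the knockout, the highest value lying in knockout replicate 2 at E62. Both cell types can express FABP4, and their part in its difference was not tested.

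Fibroblast markers were higher for 4 of 10 at E41 and 9 of 10 at E62 (8 of 10 without knockout replicate 2), with none lower, and summed to 24509 to 52755 CPM in wild type and 51543 to 104547 CPM in the knockout. Differentiated muscle markers were lower at 11 of 11 at both stages, with median log2 changes of −8.86 and −11.10. MYL1 had log2 changes of −13.82 ± 0.25 and −13.67 ± 0.24 (edgeR adjusted p = 9.3e-08 and 3.9e-08). Smooth muscle and pericyte markers were lower for 5 of 10 at E41, and at E62 they were higher for 1 and lower for 6 (2 and 5 without knockout replicate 2). No tested marker of the macrophage, endothelial, fibroblast, differentiated muscle or smooth muscle lists was at 0 in both libraries of any group. The part of these cell types in the levels of the 9 genes was not tested.

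**Figure D5:**
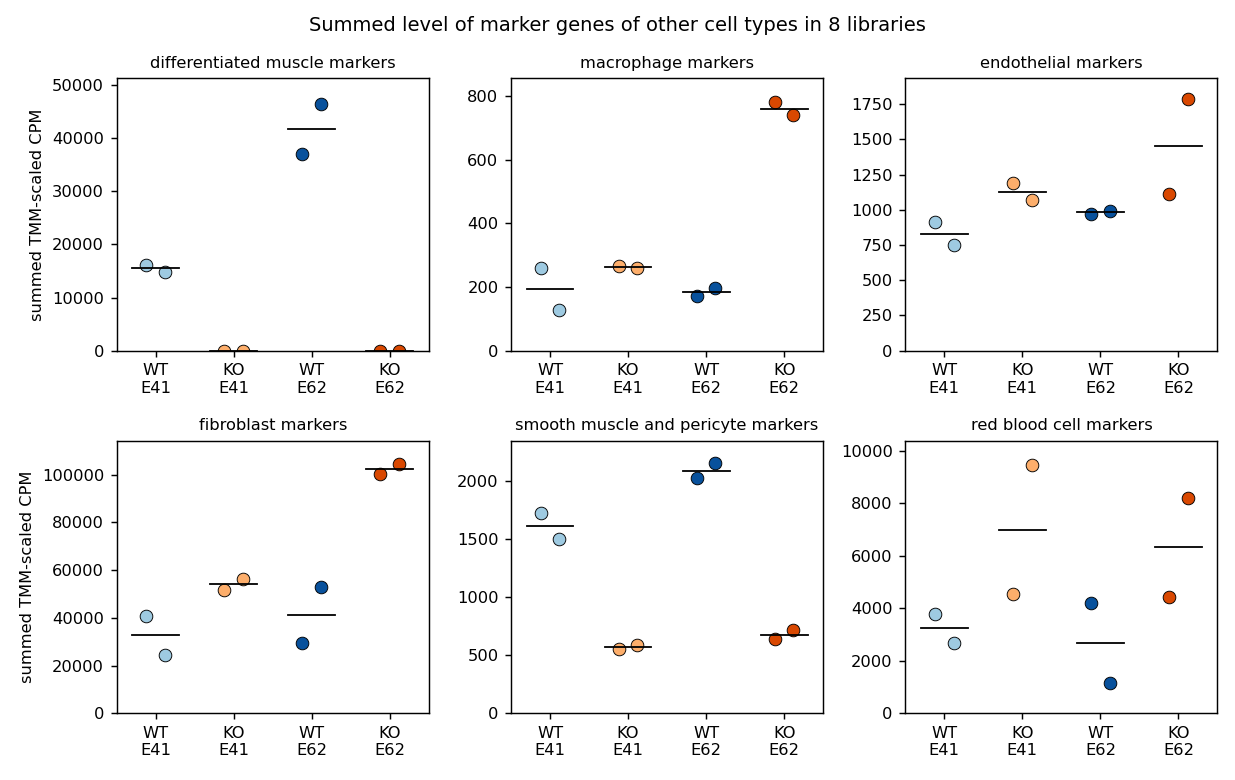
Summed TMM-scaled CPM of 6 marker lists of other cell types in every library, on linear axes that start at 0, with 1 point per library and a line at the mean of each group. Macrophage sums are highest in the 2 knockout libraries at E62 (739 and 782 CPM), and differentiated muscle sums are at 15.96 to 31.4 CPM in the 4 knockout libraries.

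The genes whose log2 levels followed ADIPOQ most closely over the 8 libraries, among 12579 compared, were WDFY4 (Pearson r = 0.995), CDHR4 (0.988), IFI35 (0.987), ZNF436 (0.984) and SFRP5 (0.983). Those closest to PPARG were CATSPERG (0.996), ZNF567 (0.989), ZC3HAV1 (0.989), GVQW3 (0.986) and CEP250 (0.985). The libraries fall into 4 groups and share the separate position of knockout replicate 2 at E62, so these coefficients describe the pattern only.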

How the data were processed

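RNA was measured in 8 bulk libraries of pig limb muscle, 2 in each of 4 groups. The deposited table gives the authors' estimated counts (expected counts) for each gene and library as unnormalized whole numbers. Per the submitters' processing notes the tools included DESeq2 and kallisto, with susScr11 and Sscrofa11.1 as builds. Tool versions, annotation and strand setting were not given in the sources used here, and the labels' protocols name both an unstranded and a stranded kit. Symbols matched 15527 of 22516 identifiers (69.0%). The 9 genes, like the 207 genes of 18 lists (192 found, 189 tested), were chosen with earlier results of these data known.

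Counts were rounded, scaled by TMM and filtered with filterByExpr (minimum count 10). They were fitted in edgeR 4.0.16 (R 4.3.3, limma 3.58.1) as a robust quasi-likelihood model with 1 mean per group over all 8 libraries and 4 residual degrees of freedom. SE is the absolute log2 change over the square root of F, and calls need a Benjamini-Hochberg adjusted p under 0.05. Ratios of low counts have exact 95% binomial intervals, which cover counting error only. Total counts were 23402052 to 60539245 per library, and the values of genes near 0 rest on few counts. Replicates differed by more than sampling noise in every group (chi-square per degree of freedom 31.9 to 70.9). The targeted genes and all members were named. Genes named from the other lists were only a part of those with the smallest p or called against the list's majority. List genes named after their values were seen are marked so. Likeness used Pearson's r of log2(CPM + 0.5). Positions are from RefSeq for Sscrofa11.1.

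On counts simulated for knockout against wild type at E62 (16668 genes), the fit recovered 26, 42, 45 and 49 of 50 genes changed 2, 4, 8 and 16-fold, with 13 calls among unchanged genes. Far fewer genes were changed there, in random directions, than the 8028 of 17020 called at E62 in the data. The simulated rates of recovery and false calls thus need not hold for these data. Alternatives were other scalings, filters, DESeq2 1.42.0, thinned counts, a replicate block, only the groups compared, and each library left out.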

Additional observations from a re-analysis of the deposited data

Results flagged for a closer look

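The effect of the knockout differed between E41 and E62 by edgeR's test of the difference itself for 5 of the 9 genes. Over all tested genes, 11.2% were called in the positive and 15.5% in the negative direction. On the log2 scale, E62 minus E41, the difference was 2.05 for FABP4 (adjusted p = 0.013), 2.40 for PPARG (adjusted p = 0.009), 1.26 for EBF2 (adjusted p = 0.0017) and 5.07 for PLIN1 (adjusted p = 0.014). For LPL it was −1.43 (edgeR adjusted p = 0.044), a call lost in 9 of 16 alternatives. The calls of FABP4 and PLIN1 were also lost in some alternatives, while EBF2 and PPARG kept theirs in all. PLIN1 had passed the low-count filter only through the knockout libraries at E62. EBF2 was lower in the knockout at E41 and higher at E62, and both effects were called.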

How the results depend on the processing

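Of 752 values of the 9 genes under the alternatives, 696 kept their direction and side of the threshold, 18 lost a call, 21 gained one and 17 changed sign, none of the last from a called value. At E62, 8 genes were called in every alternative except without wild-type replicate 2 at E62 (7, without PLIN4). At E41, 2 genes were called, against 4 with library size alone, 4 with DESeq2 and 4 with the replicate block, which added PPARG (adjusted p = 0.025) and LPL (0.023). Deviations of same-numbered libraries correlated at −0.25 to 0.097. With so few libraries a group, these values cannot decide whether the numbers pair the samples. With each library left out, 3 to 5 genes were called for the difference between stages, and calls over all genes ranged from 3927 to 6720 at E41, 2499 to 4282 for the difference, 4491 to 6885 between stages in wild type and 1906 to 5022 in the knockout.

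The sign changes were as follows. PLIN1 at E41 gave 0.20 with library size alone, 0.023 with upper-quartile factors and 0.045 with the replicate block. PLIN2 at E62 gave 0.075 and 0.022 under the first 2 of these. CEBPA between stages in wild type gave 0.00041 with library size alone and 0.034 with a minimum of 1 CPM in 2 libraries. With each library left out, ADIPOQ at E41 ranged from −0.99 to 4.95, PLIN1 at E41 from −0.57 to 0.84, and the PLIN4 difference from −6.07 to 1.71. Between stages in wild type, CEBPA ranged from −0.25 to 0.29, PLIN1 from −1.06 to 0.35 and PLIN2 from −0.30 to 0.11. In the knockout, LPL ranged from −0.11 to 0.75 and PLIN4 from −0.71 to 7.07. The cause was not tested.

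Library size alone moved the median of all genes up by 0.290 at E41 and 0.305 at E62, and upper-quartile factors by 0.110 and 0.252. The share of calls that were higher was 47.1% at E41 and 44.5% at E62, against 73.6% and 69.4% with library size alone and 57.9% and 65.5% with upper-quartile factors, which gave 56.1% against 42.0% for the difference and 55.2% against 40.3% between stages in the knockout. DESeq2 gave no adjusted p for some low-count values, and the difference between stages cannot be fitted from only the groups compared. ADIPOQ, PLIN1 and PLIN4 were near 0 at E41, so their values there rest on few counts.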

Other observations

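Counts of 3 further genes of the mature adipocyte list were at 0 in both wild-type libraries at E62 and above 0 in both knockout libraries. TRARG1, a regulator of glucose transporter trafficking in fat cells, had 105 and 36 counts in the knockout at E62. At E41 the TRARG1 counts were 7 and 1 for wild type but 67 and 25 for the knockout. SLC19A3, a thiamine transporter, had 55 and 3 counts in the knockout at E62, so nearly all lay in replicate 1. It was not absent from wild type at E41, with 35 and 94 counts against 211 and 156 for the knockout. LGALS12, a galectin of fat cells, had 5 and 15 counts in the knockout at E62 and 4 and 3 at E41, with 0 in the wild-type libraries. These genes were named after their values were seen. Of the 11 tested genes of their list, 3 were higher and 3 lower at E62. The knockout libraries at E62 also held more counts in total than the wild-type ones. The share of all genes with such a pattern of counts was not taken.

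Markers of other tissues varied widely between libraries of 1 group. Cartilage markers summed to 294 and 3645 CPM in the knockout at E41 and to 43.1 to 105 CPM in the 4 libraries at E62, and none of 7 was called at either stage. Skin and epithelium markers summed to 543 to 1184 CPM at E41. At E62 they summed to 25.2 and 29.01 CPM in wild type and to 418 and 7.66 CPM in the knockout. None of the 5 was called at either stage, and 4 were called higher at E62 without knockout replicate 2. Red blood cell markers summed to 1174 to 4220 CPM in wild type and 4435 to 9457 CPM in the knockout, where 1 of 5 was higher at E41 and none was called at E62. Schwann cell markers summed to 371 to 523 CPM in wild type and 65.2 to 219 CPM in the knockout. Of 6, 3 were higher and 1 lower at E41, and 1 was higher and 2 lower at E62 (0 and 2 without knockout replicate 2). The part of these tissues in the levels of the 9 genes was not tested.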
